A study of Arabidopsis thaliana with 4 samples.

Results

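LHCB4.2 (AT3G08940), LHCB4.3 (AT2G40100) and ATPC1 (AT4G04640) are 3 nuclear genes of photosynthesis, and their mRNA was followed here through hypoxia and onto large polysomes in Arabidopsis thaliana. They were taken by name, as the probe sets that the array annotation assigns to these genes, and are 3 of the 13356 genes that could be named. Each had 1 probe set, which was assigned to no other gene. The values come from wild-type seedlings of the Ler accession, 7 d old and kept in low light, hybridised to ATH1 arrays, on which a probe set of short oligonucleotides reports each transcript. Total RNA was measured in non-stressed control seedlings and in seedlings after 12 h of hypoxia, and RNA from large polysomes, the mRNAs loaded with many ribosomes, in the same 2 conditions, with 1 array for each of the 4 groups. The labels give a time of 12 h for the large-polysome control and none for the control in total RNA, so a difference in sampling time cannot be told apart from the ratios that use that array. They also do not say how many seedlings were pooled, and whole seedlings hold both green tissue and root.

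LHCB4 proteins, also called CP29, are minor antenna proteins of photosystem II: they bind chlorophyll and stand between the large light-harvesting trimers and the reaction centre core, passing excitation energy inwards. Arabidopsis has the isoforms LHCB4.1, LHCB4.2 and LHCB4.3, of which LHCB4.3 is the most divergent. ATPC1 encodes the main gamma subunit of the chloroplast ATP synthase, the rotating stalk that couples proton flow through the thylakoid membrane to ATP formation and carries the cysteine pair through which thioredoxin switches the enzyme on in light. All are made in the cytosol and imported into the chloroplast, whereas most other ATP synthase subunits are encoded in the chloroplast genome itself.

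Intensities are linear and relative to the average signal of their array, so a common change in the amount of mRNA is not visible, and fewer green cells cannot be told apart from less mRNA per green cell. A floor of 139.1 was set on all arrays, at the highest of their 40th percentiles, and all 3 genes lay above it on all 4 arrays. Without a replicate there is no p-value. As yardsticks served a 2-fold difference, which is 1 on the log2 scale, and the disagreement between paired probe sets that report 1 gene, whose median lay between 0.33 and 0.51 (log2) in the 5 comparisons and whose 95th percentile lay between 0.93 and 1.58. Only 30 to 62 genes had such a pair, depending on the comparison, so the 95th percentile rests on few genes. Both probe sets of a pair read the same RNA on the same arrays, so their disagreement does not hold the spread between arrays or between batches of seedlings. The 3' to 5' signal ratio of the actin control, a sign of RNA quality, was higher on the large-polysome arrays, at 2.45 without stress and 2.15 with hypoxia, than on the arrays of total RNA, at 1.39 and 1.22. An older actin control gave 10.9 and 7.34 on the large-polysome arrays against 5.46 and 5.54 in total RNA. GAPDH and ubiquitin were also higher in large-polysome than in total RNA within each condition. For GAPDH the ratios were 1.11 against 0.96 without stress, and 1.295 against 1.125 with hypoxia. For ubiquitin they were 2.02 against 1.49 without stress, and 1.24 against 1.04 with hypoxia. Across conditions the fractions overlapped for both of these controls. The part of RNA quality in the fraction ratios was not tested.

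The mRNA of LHCB4.2 was brightest in total RNA of control seedlings and dimmest in their large-polysome RNA. Its intensity in total RNA was 6573 without stress and 5550 with hypoxia, and on large polysomes it was 4002 without stress and 4813 with hypoxia. Both total RNA arrays were above both large-polysome arrays, also after quantile normalization and after scaling on the spiked controls, although with the latter the lowest array was large-polysome RNA in hypoxia. On the usual scale the highest array was 1.64-fold above the lowest. The signal was 28.8 to 47.3 times the floor, far from the range where a floor matters.

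LHCB4.1, the sister isoform and no member of the set, gave the same order of arrays on the usual scale and after quantile normalization, but not with the spiked controls, where its control signal was higher in large-polysome than in total RNA. On the usual scale its total RNA read 16446 without stress and 16171 with hypoxia, and its large-polysome RNA 10562 and 12963. Over the 5 comparisons the log2 ratios of LHCB4.1 and LHCB4.2 lay between 0.03 and 0.22 apart, less than the median disagreement of probe set pairs in all 5. Each has a probe set of its own on the array. Cross-hybridisation between the mRNAs of the isoforms was not tested.

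LHCB4.3 was the weak signal of the set, at 1.79 to 2.95 times the floor, and followed another order. Its total RNA stood at 375 without stress and 249 with hypoxia, and its large-polysome RNA at 410.5 without stress and 344 with hypoxia. Both hypoxia arrays were below both control arrays on this scale, and the range was 1.65-fold; with quantile normalization or the spiked controls the large-polysome array in hypoxia was above the total RNA array of control seedlings.

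On the usual scale ATPC1 had the smallest range of the set, 1.33-fold over the arrays; with the spiked controls its range was 1.81-fold, and LHCB4.2 had the smallest, 1.15-fold. In total RNA its intensity was 7080 without stress and 6068 with hypoxia, and on large polysomes 8054 without stress and 6079 with hypoxia. Again both hypoxia arrays were below both control arrays, which held with quantile normalization and not with the spiked controls, where total RNA of control seedlings was lowest. The hypoxia arrays of the 2 fractions were nearly equal. Among the 5847 genes that passed the floor on every array the median range was 1.73-fold, and 13.4% of them had a smaller range than ATPC1, against 42.5% for LHCB4.2 and 42.9% for LHCB4.3.

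**Figure D1:**
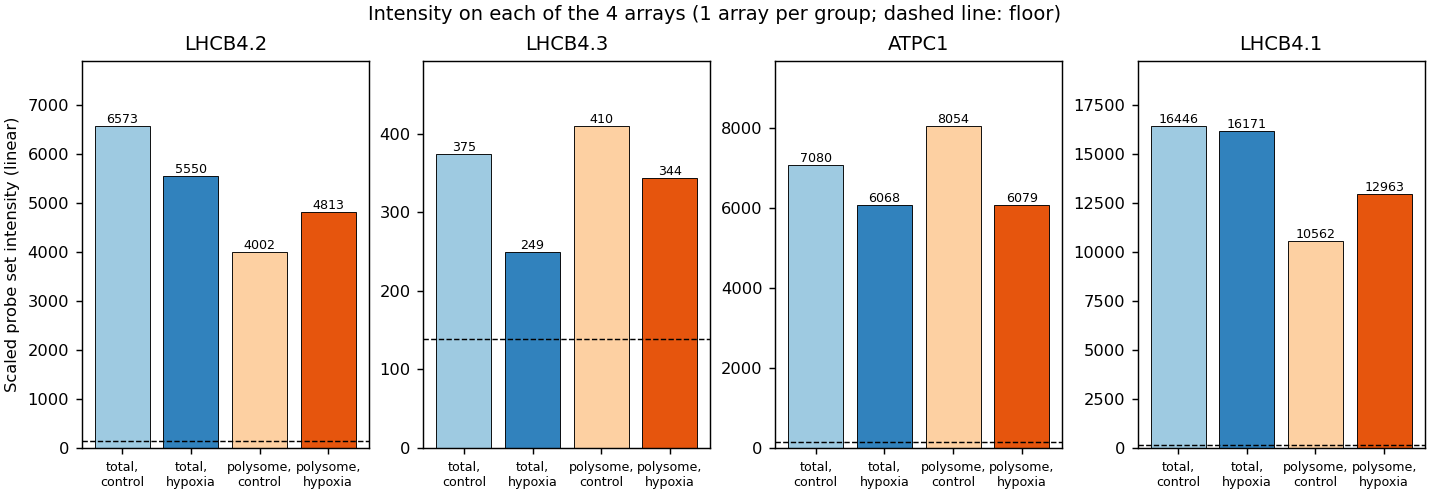
Scaled linear intensity (y axis, from 0) on the 4 arrays (x axis) for LHCB4.2, LHCB4.3, ATPC1 and, for comparison, LHCB4.1; each bar is 1 array, so there are no error bars, and the dashed line is the floor of 139.1. On this scale LHCB4.2 and LHCB4.1 are lowest in large-polysome RNA of control seedlings, whereas LHCB4.3 and ATPC1 are highest there. The y axes differ, and heights are not comparable between genes.

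In total RNA all 3 genes had less signal in hypoxia than in control relative to the average signal of the array, and none by as much as 2-fold; scaled on the spiked controls, LHCB4.2 and ATPC1 were slightly higher instead. LHCB4.3 had a log2 ratio of -0.59, a signal 33.5% lower, which was beyond the median probe set disagreement of 0.33 but within its 95th percentile of 0.93. LHCB4.2 at -0.24 and ATPC1 at -0.22 lay within the median disagreement. Of all 7640 measured genes 5.42% had a ratio of 2-fold or more upwards and 8.72% downwards, with a median of -0.06, and 20.2% of the genes had a lower ratio than LHCB4.3. The ratios of LHCB4.2 and ATPC1 became 0.06 and 0.08 when the arrays were scaled on their spiked controls, which lifted the median of all genes by 0.28; set against that median they stood at -0.16 and -0.14, and LHCB4.3 at -0.51.

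In large-polysome RNA the set was divided on this scale, whereas all 3 genes were lower in hypoxia with the spiked controls. LHCB4.2 was 20.3% higher in hypoxia, a log2 ratio of 0.27, while LHCB4.3 was 16.3% lower, at -0.26, and ATPC1 24.5% lower, at -0.41. The ratio of ATPC1 alone was beyond the median probe set disagreement of 0.37. Among 7315 measured genes 8.07% reached 2-fold upwards and 10.0% downwards, so none of the 3 was near the ends of the distribution. With the spiked controls, on which all genes shifted by -0.31, LHCB4.2 changed sign to -0.10 and was 0.29 above the median of all genes, while LHCB4.3 and ATPC1 became -0.62 and -0.77, or -0.24 and -0.39 relative to all genes.

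The ratio of large-polysome to total RNA sets the large-polysome signal of an mRNA against that of the average mRNA. In control seedlings LHCB4.2 had a log2 ratio of -0.72, so that its large-polysome signal was 39.1% below its signal in total RNA, and 7.52% of 7509 measured genes had a lower ratio. LHCB4.1 stood beside it at -0.64, whereas LHCB4.3 at 0.13 and ATPC1 at 0.19 were above 0. The gap of 0.85 between LHCB4.2 and LHCB4.3, and that of 0.90 between LHCB4.2 and ATPC1, exceeded the median probe set disagreement of 0.45 and stayed within its 95th percentile of 1.58. A ratio of 2-fold or more was reached upwards by 2.08% of the measured genes and downwards by 2.78%, none of the 3 among them. Scaling on the spiked controls moved all genes by 0.62 and brought LHCB4.2 to -0.04, LHCB4.3 to 0.80 and ATPC1 to 0.86. Relative to all genes they were -0.64, 0.21 and 0.27, against -0.69, 0.16 and 0.21 on the usual scale. These values are close by construction, since the spiked controls shift all genes alike and the median of all genes takes up the shift.

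In hypoxic seedlings the fraction ratios of LHCB4.2 and ATPC1 were closer to 0 than in control on the usual scale, and that of LHCB4.3 was farther from it. With the spiked controls this was turned for LHCB4.2, at -0.04 in control and -0.20 in hypoxia, and for LHCB4.3, at 0.80 and 0.47. LHCB4.2 had a log2 ratio of -0.21 and ATPC1 0.00, and LHCB4.3 was 37.9% brighter in large-polysome than in total RNA, at 0.46. All 3 lay within the median probe set disagreement of 0.51. Of 7078 measured genes 1.06% reached 2-fold upwards and 1.07% downwards, and 87.6% had a ratio below that of LHCB4.3. The value for LHCB4.3 rests on weak signals: with the floor at the 60th percentile its total RNA in hypoxia was below the floor and the ratio became a bound of 0.06.

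The change of association in hypoxia, the difference between these 2 log2 ratios, was 0.51 for LHCB4.2, 0.33 for LHCB4.3 and -0.18 for ATPC1. It combines all 4 arrays, so it carries the error of each, and only LHCB4.2 was beyond the median probe set disagreement of 0.47. Of 5847 genes 3.03% gained at least 2-fold and 1.90% lost at least 2-fold, and 86.0% had a lower value than LHCB4.2. LHCB4.1 had 0.32. On the spiked controls, where the median of all genes shifted by -0.65, the 3 values were -0.16, -0.34 and -0.85, and relative to all genes 0.51, 0.33 and -0.19. Over the 15 ratios of the 3 genes, 4 were beyond the median probe set disagreement, none beyond the 95th percentile and none reached 2-fold. For hypoxia over control, passing that median was common and does not set a gene apart. With total RNA the 25th and 75th percentiles of all measured genes were -0.48 and 0.35, beyond the disagreement of 0.33. Large-polysome RNA gave -0.54 and 0.40, beyond 0.37. For the remaining comparisons both percentiles lay within the median disagreement.

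**Figure D2:**
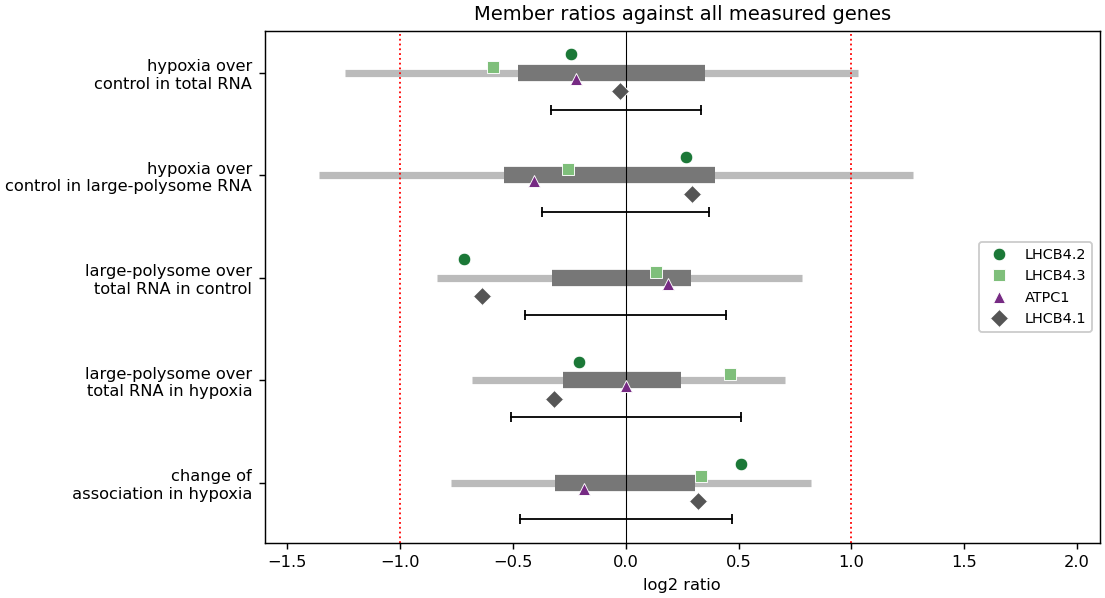
Log2 ratios (x axis) of LHCB4.2, LHCB4.3, ATPC1 and LHCB4.1 in the 5 comparisons (y axis). The light bar spans the 5th to 95th and the dark bar the 25th to 75th percentile of all measured genes, the black bracket is the median disagreement of probe set pairs on either side of 0, and dotted lines mark 2-fold. LHCB4.2 at -0.72 in the third comparison lies farthest from 0, and no marker passes a dotted line.

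The other nuclear genes of photosynthesis stayed within 2-fold in both fractions, with 1 exception. Most measured genes of the array did so too. With total RNA 5.42% of all genes reached 2-fold upwards and 8.72% downwards. On large polysomes the shares were 8.07% and 10.0%. Whether the photosynthesis genes differ from all genes in this was not tested. Of 82 genes written down for antenna, photosystems, electron transport, ATP synthase and its assembly, and the Calvin-Benson cycle, 65 had no named probe set here and 17 were measured, the 3 members included. Their median log2 ratio in hypoxia was -0.02 in total RNA, against -0.06 for all genes, and 0.08 in large-polysome RNA, against -0.07. In total RNA 7 of the 17 were above 0 and 10 below, beside 3512 above 0 among all 7640 measured genes. In large-polysome RNA 11 of the 17 were above and 6 below, beside 3311 above 0 among all 7315. These splits depend on the scaling: quantile normalization gave 7 above and 10 below in large-polysome RNA, and the spiked controls 16 above and 1 below in total RNA and 2 above and 15 below in large-polysome RNA. The median fraction ratio of the 17 in control was 0.04 and became 0.71 with the spiked controls, which put the median of all genes at 0.59. On the usual scale LHCB4.3 was the lowest of the 17 in total RNA and ATPC1 the lowest in large-polysome RNA, while LHCB4.2 had the highest change of association. Quantile normalization kept these ranks. The spiked controls could not change them, since they scale all genes of an array by the same factor. Other genes came close: with quantile normalization LHCB4.3 was at -0.39 and ATPC1 at -0.38 in total RNA. On the usual scale ATPC1 at -0.41 was followed by AT2G21385, from the ATP synthase assembly list, at -0.31 in large-polysome RNA. With the floor at the 60th percentile LHCB4.3, at a bound of -0.19, was above LHCB4.2 and ATPC1 in total RNA. In the fraction ratio of control seedlings LHCB4.2 could not be told apart from AT2G26500, a gene from the electron transport list. They stood at -0.72 and -0.71 on the usual scale, the lowest of the 17, and at -0.78 and -0.64 with quantile normalization.

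Among the photosystem genes PSBY, which encodes a small photosystem II protein, was 0.43 higher on the log2 scale in total RNA in hypoxia and -0.06 in large-polysome RNA. PSB27, an assembly factor of photosystem II, stood at 0.33 and -0.20. PSAE-1, a stromal subunit of photosystem I, was above 0 in both fractions, at 0.23 and 0.37, and PSAN, a lumenal subunit of photosystem I, was at -0.22 and -0.09. All 5 measured photosystem genes had a fraction ratio above 0 in control, with a median of 0.25, unlike LHCB4.2 and LHCB4.1; on the scale of all genes, whose median was -0.02, these are small differences. The Calvin-Benson genes RCA (rubisco activase), PRK (phosphoribulokinase) and SBPASE (sedoheptulose bisphosphatase) lay between -0.08 and 0.14 in total RNA and between 0.01 and 0.24 in large-polysome RNA, and all 3 had fraction ratios below 0 in both conditions, from -0.37 to -0.06, where the spiked controls put those in control above 0, between 0.30 and 0.46.

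ATPC2 encodes a second gamma subunit of the chloroplast ATP synthase and differed from ATPC1. The total RNA signal of ATPC2 was 203 without stress and 424 with hypoxia, and its large-polysome signal 302 without stress and 392 with hypoxia. Where ATPC1 was lower in hypoxia in both fractions, ATPC2 was higher in both, with log2 ratios of 1.06 and 0.38; on the spiked controls ATPC1 was instead at 0.08 and -0.77 and ATPC2 at 1.36 and 0.01. The first ratio of ATPC2 was the single one of hypoxia over control among the 17 genes that reached 2-fold, under each of the 3 scalings. The change of association of ATPC2 was -0.68. Its lowest signal, 203 in total RNA without stress, was not far above the floor of 139.1. With the floor at the 60th percentile, 329.0, that signal is below the floor. The first ratio of ATPC2 is then a bound short of 2-fold.

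The 6 ATP synthase genes of the chloroplast genome, the partners of ATPC1 in the complex, spanned a far wider range than the nuclear genes. For atpA, which encodes the alpha subunit, the log2 ratio in hypoxia was -1.34 in total RNA and 1.26 in large-polysome RNA, and for atpF, a subunit of the membrane sector, -1.64 and 2.22. atpB and atpE, for the beta and epsilon subunits, had ratios of -0.35 and -0.38 in total RNA, against 0.45 and 0.38 on large polysomes. With the spiked controls little of this was left, at -0.04 and -0.07 in total RNA and 0.09 and 0.01 on large polysomes. atpI went the other way, at 2.16 and -0.44. Its first ratio rests on a weak signal, since atpI read 160.8 in total RNA without stress, close to the floor of 139.1. With the spiked controls the change of association of atpI had no value. ATPC1, at -0.22 and -0.41, was below 0 in both fractions except with the spiked controls, which was the case for none of the 6.

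**Figure D3:**
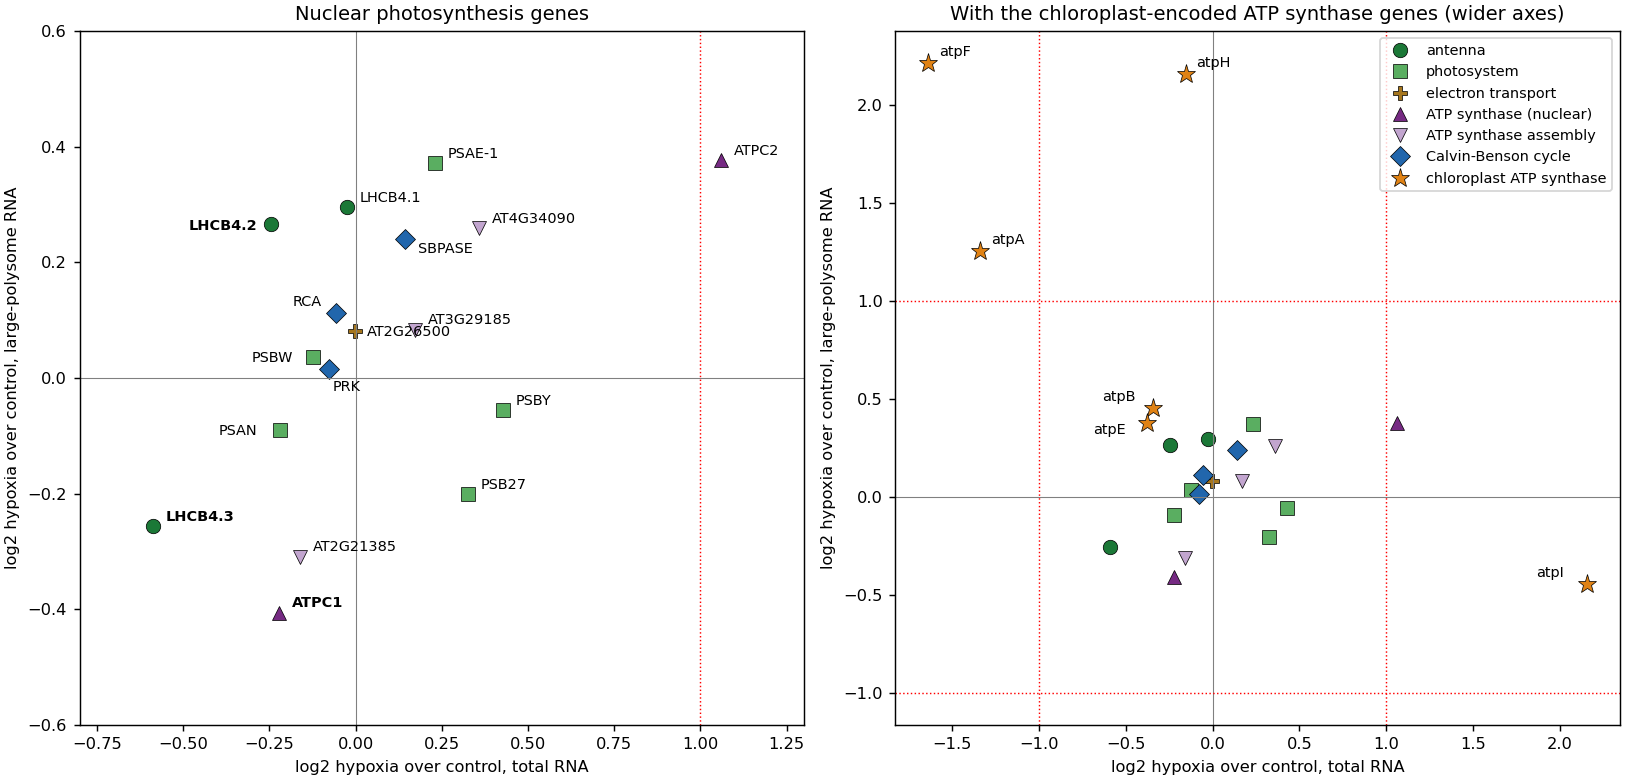
Log2 ratio of hypoxia over control in total RNA (x axis) and large-polysome RNA (y axis), 1 point a gene, coloured by function; the left panel shows the 17 nuclear genes and the right panel adds the 6 chloroplast-encoded ATP synthase genes on wider axes. Dotted lines mark 2-fold. The nuclear genes except ATPC2 lie inside the 2-fold lines, with LHCB4.3 farthest left and ATPC1 lowest, while atpA, atpF, atpH and atpI lie outside.

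Genes that act on the antenna or on the gamma subunit could be followed in part. Of 13 genes written down for chlorophyll synthesis 2 had a named probe set. PORB, the light-dependent protochlorophyllide reductase, read 5554 without stress and 2704 with hypoxia in total RNA, and 5700.4 and 2644 on large polysomes, a log2 ratio of -1.04 and -1.11, a larger difference than that of any of the 3 genes. CHLM, the methyltransferase of an earlier step, stood at 0.42 and 0.08. TRXF2, one of the f-type thioredoxins, which reduce the gamma subunit, was at -0.47 and -0.68, and NTRC, a chloroplast thioredoxin reductase, at -0.06 and -0.16. These 2 were the measured part of 17 genes written down for antenna regulation and protein import. Of 8 genes written down for the mitochondrial ATP synthase 2 were measured, AT5G47030 and AT1G51650, which stood at 0.05 and 0.15 in total RNA, against 0.28 and 0.04 on large polysomes.

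Markers of sampling time and of root tissue were read beside these ratios. Of 9 genes of the circadian clock only GIGANTEA (GI) had a named probe set. GI read 957 on the array without a stated time, total RNA of unstressed seedlings, 528 in hypoxic total RNA, and 532 and 511 on the large-polysome arrays of unstressed and hypoxic seedlings, so 1 array stood apart from the other 3 on this scale. With the spiked controls both control arrays of GI were above both hypoxia arrays: its log2 ratios in hypoxia were -0.56 in total RNA and -0.42 in large-polysome RNA, and its fraction ratio in control was -0.17. The part of sampling time in the ratios of LHCB4.2 that use this array was not tested. Of 11 root markers 3 were named: PYK10, a beta-glucosidase of root cells, read 19211 without stress and 14177 with hypoxia in total RNA, and 12709 and 14170 on large polysomes. EXPA18, an expansin of root hair cells, read 860 and 244 in total RNA, and 540 and 244 on large polysomes. EXPA7, another root hair expansin, read 340 and 95.6 in total RNA, and 162 and 105 on large polysomes, so that both hypoxia values were under the floor. All 3 root markers were thus brightest in total RNA of control seedlings on this scale, as LHCB4.2 and LHCB4.1 were. So were RCA, PRK, AT2G26500 and AT2G21385, and the chloroplast genes atpA, atpB, atpE, atpF and atpH. The rest of the measured nuclear photosynthesis genes and atpI were not, and the share among all genes was not counted. The log2 ratios of the root markers, hypoxia over control in total RNA, were -0.44 for PYK10, -1.82 for EXPA18 and, as a bound, -1.29 for EXPA7. On large polysomes they were 0.16, -1.145 and, as a bound, -0.22. The part of root tissue in the ratios of the photosynthesis genes was not tested.

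Likeness of pattern was measured as the root mean square difference between log2 values over the 4 arrays, each gene centred on its own mean, among the 5847 genes above the floor throughout. The closest genes to LHCB4.2 were AT3G53930 at 0.03, SFP1 at 0.03 and AT4G31250 at 0.04, and LHCB4.1 was the 34th closest at 0.08. The closest to LHCB4.3 were AT1G21830 at 0.02, AT4G07990 at 0.03 and PPDK, the pyruvate orthophosphate dikinase gene, at 0.03. The closest to ATPC1 were AT1G15730 at 0.0027, AT2G01870 at 0.0098 and AT5G08010 at 0.03. Such matches are common, since 60, 77 and 209 genes lay within 0.1 of LHCB4.2, LHCB4.3 and ATPC1. On this scale LHCB4.3 and ATPC1 had the same order of arrays, shared by 10.7% of the genes, and LHCB4.2 and LHCB4.1 the same order, shared by 3.01%, among 24 possible orders. With the spiked controls neither pair shared an order, and after quantile normalization only LHCB4.2 and LHCB4.1 did. The usual order of LHCB4.2 and LHCB4.1 was not particular to these isoforms. RCA, PRK, AT2G26500 and the root marker PYK10 had it too, and NTRC had that of LHCB4.3 and ATPC1. LHCB4.2 was far from the other 2 members, at 0.44 from LHCB4.3 and 0.37 from ATPC1, which were 0.17 from each other.

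**Figure D4:**
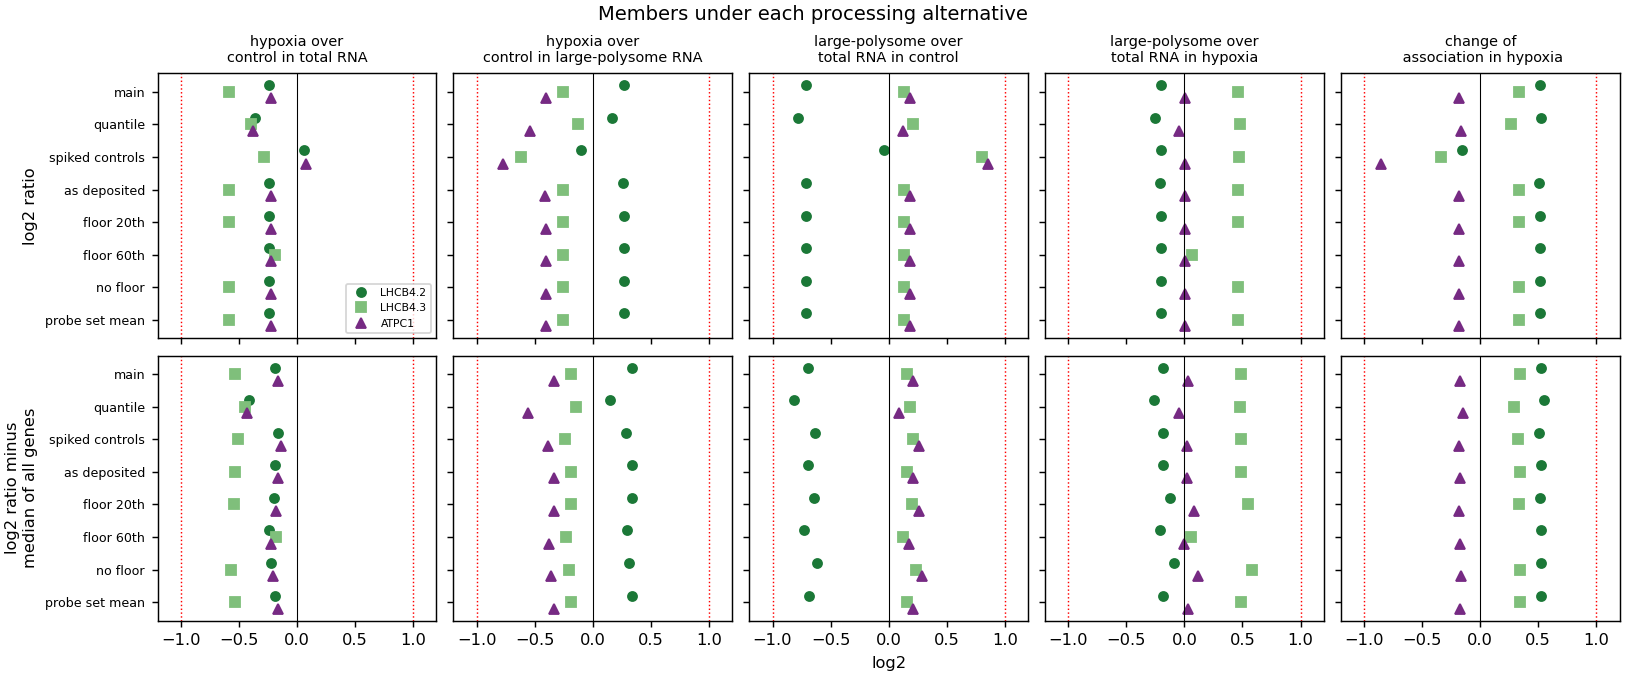
Log2 ratio of each gene (upper row) and the same minus the median of all genes (lower row) under the usual processing and 7 alternatives (y axis), 1 column a comparison; dotted lines mark 2-fold. Scaling on the spiked controls moves all 3 genes together in the upper row, and in the lower row this shift nearly cancels by construction. LHCB4.2 lies between -0.81 and -0.61 in the lower row for the fraction ratio of control seedlings. LHCB4.3 has no change of association with the floor at the 60th percentile.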

How the data were processed

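The authors deposited 1 linear intensity for each of 22810 probe sets on each of 4 arrays, 64 of the probe sets being controls; how the probes were summarised and corrected for background is not given in the sources used here. The deposited intensities had trimmed means (2nd to 98th percentile) between 499 and 500 on the 4 arrays, which points to a scaling to 1 target before deposit. Chip type, lot, station and wash protocol were the same on all arrays, per the file headers; the array of total RNA in hypoxia was scanned 2 times and the others 1 time.

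Intensities were rescaled to the same trimmed mean of the 22746 non-control probe sets (factors 0.999 to 1.001), floored and turned into log2 ratios with pandas 2.3.3 and numpy 2.4.6 in Python 3.11.15, a procedure tested on simulated data. Names came from the platform annotation and, through Entrez identifiers, from RefSeq (assembly TAIR10.1, names only): of the probe sets 13513 had 1 gene, 503 several, and 8730 are unnamed here. The brightest probe set stood for a gene. Where both arrays of a ratio were below the floor no ratio was formed, and where 1 was, the ratio is a bound. No test was possible with 1 array per group; the number of arrays limits the precision. Named were the members, the measured genes of the lists written down for photosynthesis and related functions, and the 3 genes closest to each member. PORB, ATPC2 and GI belong to those lists. The members and lists were chosen with earlier results of these data known. The alternatives tried were quantile normalization, scaling on the 18 spiked control probe sets, the deposited values as they are, floors at the 20th and 60th percentile, no floor, and the mean over probe sets. No sequence tables were used here.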

Additional observations from a re-analysis of the deposited data

Results flagged for a closer look

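LHCB4.2 was lower in hypoxia in total RNA, at a log2 ratio of -0.24, and higher in large-polysome RNA, at 0.27, so its ratios had opposite signs in the 2 fractions; with the spiked controls the signs were turned, at 0.06 and -0.10. With 1 array per group the difference was not tested. Both ratios lay within the median disagreement of probe set pairs, and their difference of 0.51 was just beyond the 0.47 found for such pairs.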

How the results depend on the processing

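No ratio of the 3 genes reached 2-fold under any of the alternatives, and 97 of the 104 alternative values lay within the median disagreement of probe set pairs from the usual value. The mean over probe sets leaves the members as they are by construction, since each has 1 probe set. No floor and the floor at the 20th percentile also left their ratios unchanged, since all 3 lay above the usual floor. The floor at the 60th percentile left LHCB4.2 and ATPC1 unchanged, and the deposited values differ from the usual ones only by factors of 0.999 to 1.001. Most of the 104 values thus repeat the usual one, and only quantile normalization and the spiked controls could move all 3 genes. The spiked controls shift all genes alike, so relative to the median of all genes their values too nearly repeat the usual ones by construction. With the spiked controls, the large-polysome over total ratios in control moved to -0.043 for LHCB4.2, 0.805 for LHCB4.3 and 0.859 for ATPC1, and the change of association to -0.158, -0.337 and -0.852; all genes shifted by 0.62 and -0.65 on that scale. With the floor at the 60th percentile the ratio of LHCB4.3 in total RNA became -0.187, a bound, and its change of association had no value. In total RNA, LHCB4.2 and ATPC1 were below 0 in 7 of 8 settings, and in large-polysome RNA LHCB4.2 was above 0 in 7 of 8. The spiked controls gave the other sign each time, and most of the other settings repeat the usual value. ATPC1 in hypoxia, large-polysome over total, ranged from -0.04 to 0.01. Counts of 2-fold genes moved by over 1.5 times in 35 of 70 cases: in total RNA from 414 higher and 666 lower to 787 and 309 with the spiked controls and 1621 and 1933 without a floor; in large-polysome RNA from 590 and 735 to 315 and 1472, and 1804 and 2116; for the fraction ratio in control from 156 and 209 to 1517 and 20, and 910 and 1620; in hypoxia from 75 and 76 to 817 and 1508 without a floor; and for the change of association from 177 and 111 to 23 and 1240, and 1663 and 1721. Signals near the floor limit LHCB4.3. No paired analysis was possible because each group holds 1 array and the labels carry no replicate numbers.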
